A study of Mus musculus with 20 samples.

Results

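The genes described here are 32 genes of glycolysis and of the transcriptional response to hypoxia, taken by name from the 55866 rows of a mouse count table, in which all 32 were found. They comprise 16 enzymes of the pathway from glucose to lactate, 3 regulators of its flux, 3 glucose or lactate transporters, 3 subunits of the hypoxia-inducible factors (HIFs), 2 oxygen sensors and 5 other genes known to respond to hypoxia. Glycolysis splits glucose into pyruvate in the cytosol, and lactate dehydrogenase turns the pyruvate into lactate when it is not passed on to mitochondria. Under sufficient oxygen the prolyl hydroxylases encoded by Egln1 and Egln3 mark HIF alpha subunits for degradation. When oxygen falls, the alpha subunits HIF1A and EPAS1 (HIF2A) persist, pair with ARNT and bind hypoxia response elements of genes for glycolysis, glucose uptake and adaptation to low oxygen. Endothelial cells (ECs) are known to draw much of their energy from glycolysis, which PFKFB3 promotes during sprouting, and EPAS1 is a HIF subunit known for its abundance in endothelium.

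The libraries came from Py8119 tumors, grown from a mouse mammary tumor cell line in the mammary fat pad of female RiboTagEC mice on a C57BL/6J background. These mice (Rpl22HA/HA x Cdh5CreERT2) carry a ribosomal protein gene, Rpl22, that gains an HA tag after Cre recombination, and the Cre is driven by the endothelial Cdh5 promoter and needs tamoxifen, which was given at 75 mg/kg for 5 days at 3 weeks of age. Tumors were implanted at 8 weeks, and the mice then received either 6-3-A6, a neutralizing antibody to Notch4, at 25 mg/kg or control mouse IgG intravenously, with harvest on day 10. Treatment began at a tumor volume given as 30 mm3 in the sample labels and as an average of 50 mm3 in the series description. By the study's methods, the lysed tumor homogenate was spun and part of the supernatant was set aside as input. An anti-HA antibody pulled polysomes from the rest of the supernatant for the IP. Each of 5 tumors per treatment gave an input library and an IP library. This gave 4 groups of 5 libraries and 20 libraries in all, and every group shared the tag, the Cre, the tamoxifen and the tumor line. The tag marks cells with past Cdh5 promoter activity only, no library of an untagged mouse was analysed here, and the labels do not say whether each tumor came from a mouse of its own, so that p-values measure the spread between these samples.

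Libraries held 11881214 to 26728205 counts on genes, and values are given as CPM, counts brought to one common library total and scaled by TMM factors, where 3 counts corresponded to 0.104 to 0.315 CPM. All 17 endothelial markers tested were higher in IP than in input, by a median of 4.36 on the log2 scale. Pecam1, a junctional molecule of ECs, lay between 34.7 and 73.0 CPM in input and between 191 and 1521 CPM in IP, and Cdh5 between 33.8 and 59.6 CPM and between 221 and 1546 CPM. Rpl22, the gene that carries the tag, was at 432 to 1143 CPM in input and 193 to 489 CPM in IP. Macrophage markers remained in IP, at a summed 3248 to 8922 CPM against 6360 to 15182 CPM in input. The input library of 6-3-A6 tumor 4 stood apart from the other input libraries, with the lowest value of 20 of the 31 members that passed a filter on low counts, a position it held for 31.8% of all 14488 genes that passed.

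The members were not all equally measurable. Hif1a, the gene of the HIF1 alpha subunit, was listed with 0 counts in all 20 libraries, although it is used by most cells. Its row covers chromosome 12 from 73948149 to 73994304 in the coordinates of the table, and 100% of it is also covered by the rows of Gm15283 and Snapc1l, so that no level of Hif1a is given. Eno2, the neuronal enolase, was close to the floor, at 0.171 to 1.68 CPM in input and 0.0609 to 0.631 CPM in IP, and it passed the filter only in the fit of all 4 groups. Rows of other genes also covered 82.4% of the counted bases of Aldoa, an aldolase, and 73.4% of those of Ankrd37, a small ankyrin repeat protein known as a HIF target. Reads of 15 members can be shared with other genes. Their transcripts matched at least 1 other gene over 100 bases or more at 95% identity or more. For Hk1, Pfkp, Slc2a1, Ndrg1 and Ankrd37, the matched genes are rows that overlap the member's own row, not copies elsewhere. Gapdh matched 81 other genes, and Ldha, Gpi1 and Bnip3 matched 5 each. The values of these genes are therefore uncertain to the extent that the counting split or dropped such reads.

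The first comparison asked which of these genes had a higher or lower relative RNA level in the endothelial IP fraction than in the input. Epas1, the endothelial HIF alpha subunit, was the most enriched member, at 8.35 times its input level. Also higher were the hexokinase genes Hk1 and Hk2, the phosphofructokinase genes Pfkl and Pfkp but not Pfkm, the pyruvate kinase gene Pkm, the activator of phosphofructokinase Pfkfb3, and Ankrd37. The glucose transporter Slc2a3 and the collagen prolyl 4-hydroxylase subunit P4ha1 were lower in IP. In all, 8 members were higher, 2 were lower and 20 did not pass the threshold (edgeR quasi-likelihood test over 20 libraries, Benjamini-Hochberg adjusted p of 0.05). This fit does not pair the input and IP libraries of a tumor, and calls by gene below refer to it unless stated. A fit with such pairing called more members and is given further below. Over all 13582 genes tested, 19.8% were higher and 21.4% were lower. The median log2 fold change was 0.26 over the 30 members tested and −0.05 over all genes. In bulk libraries, fewer cells of a type and less RNA per cell cannot be told apart.

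**Figure D1:**
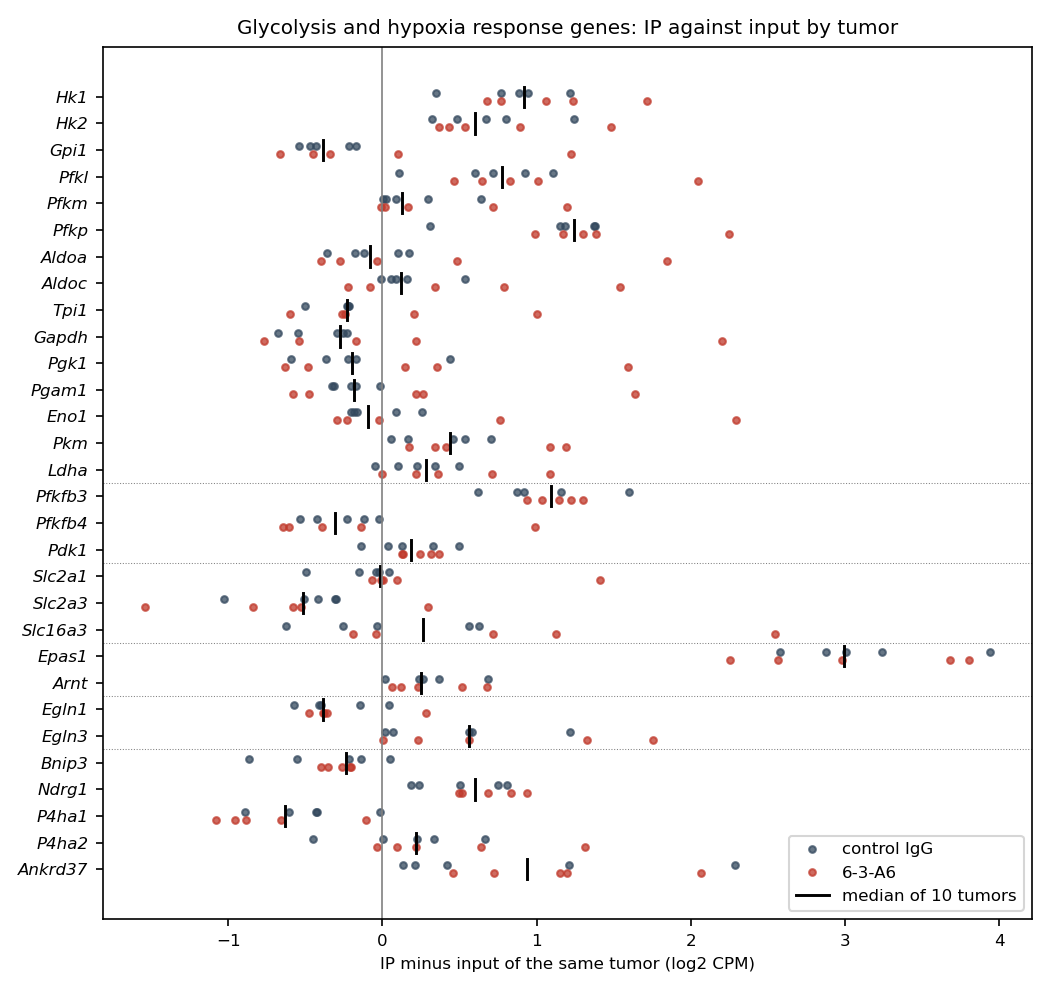
Log2 ratio of IP to input CPM for each tumor (points, 5 control IgG and 5 6-3-A6 tumors) for the members that passed the filter on low counts, ordered by role, with a line at 0 where both fractions are equal. All 10 tumors lie to the right of 0 for Epas1, Pfkp, Pfkfb3, Hk1, Hk2, Pfkl, Pkm, Ankrd37, Arnt, Egln3 and Ndrg1. All 10 lie to the left of 0 for P4ha1. The share of all genes with every tumor on the same side is not given.

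Among the HIF subunits, Epas1 ranged from 22.8 to 93.0 CPM in input, with a median of 27.1 CPM, and from 136 to 444 CPM in IP, with a median of 255 CPM. By library, the IP values were 272, 237, 401, 136 and 220 CPM for control IgG tumors 1 to 5 and 329, 159, 379, 444 and 229 CPM for 6-3-A6 tumors 1 to 5. The ranges of input and IP did not overlap, which was so for 4.34% of all genes with IP above input, and the highest input value was that of 6-3-A6 tumor 4, the others reaching at most 32.3 CPM. The log2 fold change of IP against input was 3.06 (SE 0.26, edgeR adjusted p = 6.1e-09), and it was 3.29 without both libraries of that tumor. The row of Epas1 covers chromosome 17 from 87061128 to 87140838 and shares 1.73% of its counted bases with other rows. Arnt, the partner of both alpha subunits, was far less different, at 85.3 to 156 CPM in input (median 122 CPM) and 109 to 211 CPM in IP (median 155 CPM). It was higher in IP in 10 of 10 tumors, by 0.32 on the log2 scale, and this narrowly missed the threshold (edgeR adjusted p = 0.0519).

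**Figure D2:**
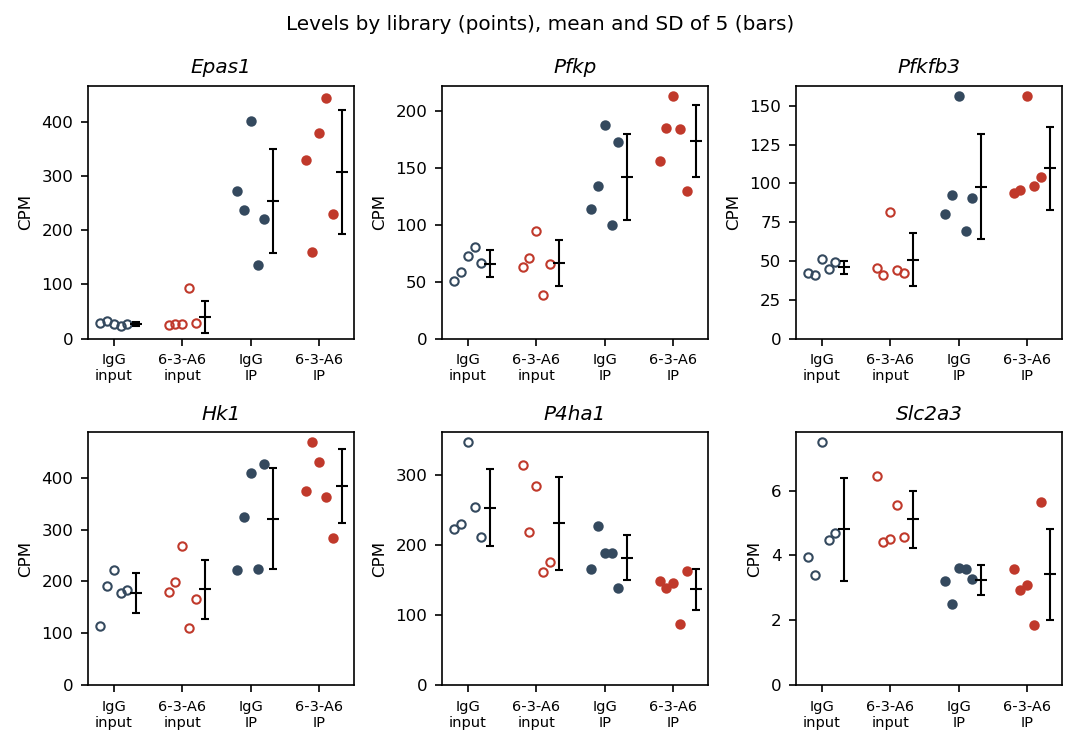
CPM of Epas1, Pfkp, Pfkfb3, Hk1, P4ha1 and Slc2a3 in each library (points) of the 4 groups of 5, with the group mean and SD as bars. IP lies above input without overlap for Epas1 and Pfkp, and the single high input point of Epas1, at 93.0 CPM, belongs to 6-3-A6 tumor 4.

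Of the 15 glycolytic enzymes tested, 5 were higher in IP, beside 19.8% of all genes, 0 were lower and 10 were not called by edgeR. Pfkp, the platelet-type phosphofructokinase, was at 38.7 to 94.4 CPM in input (median 65.9 CPM) and 100.2 to 213 CPM in IP (median 164 CPM), a log2 fold change of 1.24 (SE 0.15, edgeR adjusted p = 1.5e-06) with no overlap between the fractions. Hk1, the hexokinase that most tissues use to trap glucose, was at 110 to 269 CPM in input (median 181 CPM) and 221 to 469 CPM in IP (median 368 CPM), with a log2 fold change of 0.95 (SE 0.17, edgeR adjusted p = 0.00013). Its inducible relative Hk2 went from a range of 66.4 to 116 CPM (median 87.6 CPM) to one of 103 to 264 CPM (median 137 CPM), with a log2 fold change of 0.76 (SE 0.15, edgeR adjusted p = 0.00045). The ranges of both hexokinases overlapped between fractions, but IP was the higher library in 10 of 10 tumors for each.

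The liver-type phosphofructokinase Pfkl was at 44.5 to 144 CPM in input (median 104 CPM) and 93.5 to 256 CPM in IP (median 172 CPM), a log2 fold change of 0.81 (SE 0.21, edgeR adjusted p = 0.0039). The muscle-type form Pfkm was not called, at 21.02 to 52.0 CPM in input and 31.7 to 80.0 CPM in IP, so that by edgeR the 3 phosphofructokinase genes had log2 fold changes of 1.24, 0.81 and 0.31. Pkm, pyruvate kinase, was among the most counted members, at 871 to 1682 CPM in input (median 1131 CPM) and 1208 to 2659 CPM in IP (median 1501 CPM), with a log2 fold change of 0.51 (SE 0.14, edgeR adjusted p = 0.0078). Pfkl and Pkm were also higher in IP in all 10 tumors.

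The enzymes between the phosphofructokinase and pyruvate kinase steps, together with Gpi1, which isomerizes glucose 6-phosphate, were not called by edgeR. The log2 fold changes were 0.06 for Aldoa, 0.28 for Aldoc, −0.17 for Tpi1, −0.21 for Gapdh, −0.02 for Pgk1, −0.05 for Pgam1, 0.14 for Eno1 and −0.27 for Gpi1. In 6-3-A6 tumor 4, whose input library stood apart, IP exceeded input for all of them, from 1.00 on the log2 scale for Tpi1 to 2.20 for Gapdh and 2.29 for Eno1. Gapdh, Tpi1 and Gpi1 were lower in IP in 8 of 10 tumors, Pgam1 in 7, and Aldoa, Pgk1 and Eno1 in 6. Without that tumor the log2 fold changes were −0.04 for Aldoa, 0.22 for Aldoc, −0.22 for Tpi1, −0.33 for Gapdh, −0.11 for Pgk1, −0.13 for Pgam1, 0.04 for Eno1 and −0.34 for Gpi1, again none of them called by edgeR. The signs of Pgk1 and Pgam1 turned when libraries were scaled by their totals in place of TMM factors. Ldha, which reduces pyruvate to lactate, was at 474 to 1031 CPM in input and 708 to 1251 CPM in IP, higher in IP in 9 of 10 tumors, with a log2 fold change of 0.33 (edgeR adjusted p = 0.066) that DESeq2 called (DESeq2 adjusted p = 0.030).

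Of the flux regulators, Pfkfb3, which makes the allosteric activator of phosphofructokinase, was at 40.8 to 81.6 CPM in input (median 44.7 CPM) and 69.2 to 157 CPM in IP (median 94.6 CPM). The difference was 1.09 on the log2 scale (SE 0.15, edgeR adjusted p = 9.7e-06), with IP higher in 10 of 10 tumors. The only input value inside the range of IP was that of 6-3-A6 tumor 3, whose IP value was also the highest. Pfkfb4, the related enzyme of the same family, and Pdk1, the kinase that turns off pyruvate dehydrogenase, were not called by edgeR, with log2 fold changes of −0.28 and 0.19. Pfkfb4 ranged from 7.36 to 29.8 CPM in input and from 14.0 to 25.5 CPM in IP, and it was called lower, at −0.33, without 6-3-A6 tumor 4 (edgeR adjusted p = 0.034).

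Among the transporters, Slc2a3, a high-affinity glucose transporter, was counted at a low level, from 3.39 to 7.51 CPM in input (median 4.54 CPM) and from 1.84 to 5.65 CPM in IP (median 3.23 CPM). IP was the lower library in 9 of 10 tumors, and the log2 fold change was −0.58 (SE 0.19, edgeR adjusted p = 0.0173). With libraries scaled by their totals it was −0.39 and no longer called. Slc2a1, the widespread glucose transporter, was at 8.62 to 47.6 CPM in input and 10.4 to 50.4 CPM in IP, a log2 fold change of 0.02 that was −0.04 without 6-3-A6 tumor 4. Slc16a3, a lactate exporter, was at 8.41 to 62.0 CPM and 30.6 to 116 CPM, with a log2 fold change of 0.46, and neither was called by edgeR.

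The oxygen sensors were not called by edgeR in the fit without pairing, but both were called in the fit that paired input and IP. Egln3, itself a HIF target, had a log2 fold change of 0.95 (edgeR adjusted p = 0.0685) and was higher in IP in 10 of 10 tumors, and DESeq2 called it (DESeq2 adjusted p = 0.039). Egln1, at 111 to 351 CPM in input and 86.4 to 274 CPM in IP, had a log2 fold change of −0.30. Of the other hypoxia targets, Ankrd37 was at 3.34 to 14.0 CPM in input (median 6.37 CPM) and 5.19 to 32.2 CPM in IP (median 12.6 CPM), a log2 fold change of 1.06 (SE 0.33, edgeR adjusted p = 0.014), higher in IP in 10 of 10 tumors. P4ha1, which helps to hydroxylate collagen, was at 161 to 347 CPM in input (median 226 CPM) and 87.3 to 227 CPM in IP (median 156 CPM), a log2 fold change of −0.62 (SE 0.15, edgeR adjusted p = 0.0022), lower in IP in 10 of 10 tumors. Its relative P4ha2, the mitophagy receptor Bnip3 and the stress-response gene Ndrg1 were not called by edgeR, with log2 fold changes of 0.25, −0.30 and 0.60.

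With the tumor as a block, so that each IP library was set against its own input, 13 members were higher and 4 were lower (edgeR quasi-likelihood test), against 25.1% and 27.3% of all genes. The 10 members called without the block kept their calls. Added were Arnt at 0.31, Ldha at 0.34, Egln3 at 0.62, Ndrg1 at 0.59 and Pfkm at 0.30, and in the other direction Bnip3 at −0.32 and Egln1 at −0.29, all on the log2 scale. DESeq2 called 11 members higher and 2 lower, beside 17% and 17.4% of all genes, Arnt, Ldha and Egln3 being added. By treatment, the control IgG tumors alone called 5 members higher (Pfkfb3, Hk2, Hk1, Pfkp and Epas1) and 0 lower, beside 10.1% and 5.74% of all genes tested. The 6-3-A6 tumors alone called 4 higher (Pfkfb3, Hk1, Pfkp and Epas1) and P4ha1 lower, beside 9.82% and 8.36% of all genes. Without both libraries of 6-3-A6 tumor 4, 9 members were higher and 3 lower, Arnt and, among the lower ones, Pfkfb4 being added, beside 22.3% and 20.4% of all genes. Scaling by library totals moved the median log2 fold change of all genes by 0.18 and the share of called genes that were higher from 48.2% to 70.4%, and with it 11 members were called higher and 1 lower, beside 28.2% and 11.8% of all genes.

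Genes near these members in function were taken from fixed lists, whose counts are to be read beside the 19.8% of all genes higher and 21.4% lower in this comparison. Among the other genes of glycolysis, 1 of 11 tested was higher in IP (Pgm2, a phosphoglucomutase, log2 fold change 1.12) and 2 were lower (Eno3 at −0.48 and Adpgk at −0.39). The higher ones were 3 without control IgG IP 4 or 6-3-A6 input 5 and 2 without control IgG input 5, 6-3-A6 input 4 or 6-3-A6 IP 1, and the lower ones were 1 without 6-3-A6 input 5. Of 7 genes of the pentose phosphate pathway, 3 were higher, among them Taldo1 at 0.45 and Rpe at 0.42, and H6pd was lower at −0.55, the count of higher genes being 1 without 6-3-A6 input 1 and that of lower genes 2 without 6-3-A6 input 4. Of 16 genes for pyruvate entry into mitochondria and for lactate handling, 4 were higher, led by Pcx, pyruvate carboxylase, at 1.22 and Dld at 0.49, and 3 were lower, among them the lactate transporter Slc16a1 at −0.79 and its chaperone Bsg at −0.67. Without 6-3-A6 input 4, 7 of these genes were higher.

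Among 6 other genes of the Slc2a family, Slc2a10 at 2.88 and Slc2a13 at 1.27 on the log2 scale were higher in IP. Slc2a5, a fructose transporter, was lower at −1.21. Regulators of the HIF pathway held 0 genes called higher and 1 called lower of 10, Rbx1 at −0.41, a call kept in 11 of the 20 fits that left out 1 library, and 1 gene was higher without 6-3-A6 input 4 or 6-3-A6 IP 5. Among 30 other known hypoxia targets, 9 were higher, led by the vascular peptide gene Apln at 3.24 and the lipase inhibitor Angptl4 at 3.03, and 7 were lower, led by the carbonic anhydrases Car12 at −1.01 and Car9 at −0.93, the count of lower genes being 4 without 6-3-A6 input 3. Of the other genes for collagen hydroxylation, 1 of 5 was higher, the lysyl hydroxylase Plod1 at 0.80, and 3 were lower, P4ha3 at −1.55, P4hb at −0.58 and Plod2, which falls outside the rule for naming, at −0.36. The lower ones of this list were 1 in place of 3 without any 1 of the libraries control IgG input 1, 6-3-A6 input 4 and 6-3-A6 IP 2, 3 and 4.

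The second comparison asked how the members differed between 6-3-A6 and control IgG in the IP fraction. The study compared 3 control IgG IP libraries (tumors 2, 4 and 5) with 3 6-3-A6 IP libraries (tumors 1, 3 and 4). It set the others aside as outliers of a principal component analysis, and reports that the treatments separated more clearly without them. The choice of libraries can therefore not be taken as independent of the difference. In these 6 libraries, Ndrg1 and Ankrd37 were higher under 6-3-A6, 0 members were lower and 28 were not called, against 2.57% of 13999 genes higher and 2.04% lower (edgeR quasi-likelihood test). Both are HIF targets. The log2 fold change was positive for 26 of 30 members, with a median of 0.49 against −0.05 over all genes.

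Ndrg1 was at 65.2, 52.5 and 56.1 CPM in control IgG IP libraries 2, 4 and 5 and at 155, 178 and 77.5 CPM in 6-3-A6 IP libraries 1, 3 and 4, a log2 fold change of 1.21 (SE 0.28, edgeR adjusted p = 0.0385). All 3 values under 6-3-A6 lay above all 3 under control IgG. The share of all genes that separated in this way was not computed. The libraries set aside changed the picture. They held 42.3 and 136 CPM in control IgG IP 1 and 3 and 112 and 32.9 CPM in 6-3-A6 IP 2 and 5, so that over all 10 libraries the treatments overlapped and the log2 fold change was 0.65 (edgeR adjusted p = 1). The row of Ndrg1 covers chromosome 15 from 66801167 to 66841489, of which 4.51% of the counted bases are shared with other rows.

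Ankrd37, whose row covers chromosome 8 from 46449939 to 46458744, was at 9.85, 8.14 and 5.19 CPM in the control IgG and at 16.5, 32.2 and 15.3 CPM in the 6-3-A6 libraries kept by the study, a log2 fold change of 1.45 (SE 0.33, edgeR adjusted p = 0.0346). The 3 values under 6-3-A6 again lay above the others, with no share over all genes computed to set beside it. The libraries set aside were at 16.8 and 22.0 CPM under control IgG and at 8.95 and 5.44 CPM under 6-3-A6, the reverse order, and over all 10 libraries the log2 fold change was 0.33 (edgeR adjusted p = 1). Egln3 had a larger difference that missed the threshold, with 89.8, 106 and 47.0 CPM against 263, 527 and 113 CPM, a log2 fold change of 1.87 (SE 0.48, edgeR adjusted p = 0.0521), while control IgG IP 3, set aside by the study, was at 352 CPM.

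The 5 largest log2 fold changes after these, not called by edgeR but called by DESeq2, were those of Bnip3 at 1.25, Slc16a3 at 1.03, Epas1 at 0.93, Slc2a1 at 0.84 and Pdk1 at 0.71, with edgeR adjusted p between 0.0628 and 0.1105. Epas1 was at 237, 136 and 220 CPM under control IgG and 329, 379 and 444 CPM under 6-3-A6. The members with a negative log2 fold change were P4ha1 at −0.56, Pfkfb4 at −0.47, Hk2 at −0.30 and Slc2a3 at −0.17. The glycolytic enzymes tested ranged from −0.30 to 0.68, the latter for Pgk1, with a median of 0.45.

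**Figure D3:**
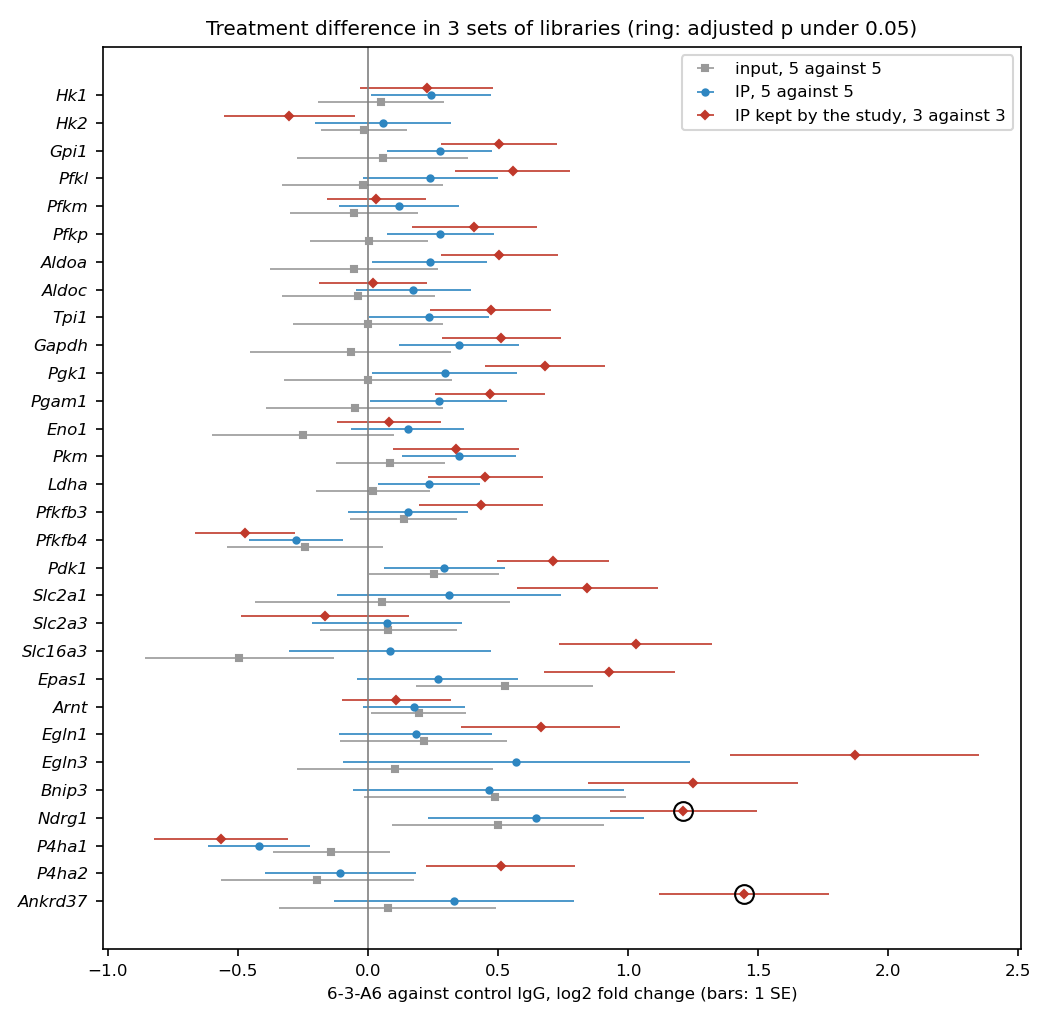
Log2 fold change of 6-3-A6 against control IgG with 1 SE (horizontal bars) for each member, in the input of 5 against 5 tumors, in the IP of 5 against 5 tumors and in the 3 against 3 IP libraries that the study kept, with rings around the members called by edgeR. Rings mark Ndrg1 and Ankrd37 in the 3 against 3 libraries, and the values of both in all 10 IP libraries lie closer to 0.

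Both calls depended on single libraries. Leaving out 1 of the 6 libraries at a time gave a log2 fold change of 0.98 to 1.497 for Ndrg1 and of 1.03 to 1.70 for Ankrd37, always positive, and each was called in 2 of the 6 fits. The call of Ndrg1 was lost without control IgG 4 or 5 or 6-3-A6 1 or 3 (edgeR adjusted p up to 0.1525) and that of Ankrd37 without control IgG 4 or 5 or 6-3-A6 3 or 4 (edgeR adjusted p up to 0.1339). DESeq2 called 9 members higher and 0 lower in the same 6 libraries, Ndrg1, Ankrd37, Egln3, Bnip3, Slc16a3, Epas1, Slc2a1, Pdk1 and Pgk1 (DESeq2 adjusted p of 0.00060 to 0.049), where it called 4.6% of all genes higher and 3.69% lower.

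The cell type markers also moved with treatment in these 6 libraries. The summed endothelial markers were at 1560 to 5039 CPM under control IgG and 5082 to 6381 CPM under 6-3-A6, with 5 of 17 called higher, and the summed macrophage markers at 6555 to 7693 CPM and 3248 to 3905 CPM, with 6 of 12 called lower and Itgam at 0 counts. The fibroblast markers were at 1315 to 2834 CPM and 633 to 1334 CPM, with 2 of 10 called lower, and the epithelial markers at 327 to 390 CPM and 169 to 241 CPM, with 2 of 8 called lower. The erythroid markers were at 20.6 to 45.8 CPM and 29.8 to 554 CPM, with 3 of 4 called higher and Alas2 at 0 counts. Of 8 mural markers 1 was called higher and 1 lower, and of the lymphoid and neutrophil markers none of 5 and none of 4 was called by edgeR. The part that these markers have in the differences of Ndrg1, Ankrd37 and the other members was not tested.

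Other fixed lists were called in the 6 libraries as follows, beside 2.57% of all genes higher and 2.04% lower, counts that fell to 5 and 4 genes in all without 6-3-A6 IP 3. Of 30 other hypoxia targets, 5 were higher under 6-3-A6, led by the endothelin gene Edn1 at 1.63, Stc2 at 1.46 and Ddit4 at 1.38 on the log2 scale, and 2 were lower, Tfrc at −1.11 and Vldlr at −0.83, the last pair being named after their values were seen. Of 16 genes of pyruvate entry and lactate handling, the lactate transporters Slc16a7 at −1.16 and Slc16a1 at −1.15 were lower. The lists of other glycolytic genes, pentose phosphate genes, other Slc2a genes, HIF pathway regulators and other collagen hydroxylation genes held no gene called by edgeR.

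Over all 10 IP libraries and over the 10 input libraries, 0 members and 0 genes were called by edgeR (0% of 13602 and of 13683 genes) or by DESeq2, while 292 and 180 genes, and none of the 30 members, had an unadjusted edgeR p under 0.05. The members' median log2 fold change was 0.24 in IP, with 27 of 30 positive, beside 0.01 over all genes, and 0.01 in input, with 18 of 30 positive. Both medians depended on single libraries. The IP median was 0.14 without 6-3-A6 IP 3, with 22 of 30 positive, and 0.36 without control IgG IP 3, and the input median was −0.16 without 6-3-A6 input 3 and 0.17 without 6-3-A6 input 4, with 25 of 30 positive in the last. In the IP libraries the values ranged from −0.42 for P4ha1 to 0.65 for Ndrg1, and in input from −0.50 for Slc16a3 to 0.53 for Epas1. The input value of Epas1 includes the 93.0 CPM of 6-3-A6 tumor 4, beside 25.6 to 28.9 CPM in the other 6-3-A6 tumors, and without that library it was −0.02, that of Slc16a3 was −0.24 and the highest was 0.64 for Bnip3, none of them called by edgeR. For the tumors whose IP libraries the study kept, the input log2 fold changes were 1.15 for Bnip3, 0.98 for Ndrg1, 0.71 for Egln3 and 0.33 for Ankrd37, none of them called by edgeR.

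Whether the treatment difference itself differed between fractions was tested by the interaction over 20 libraries. It called 0 of 31 members and 0 of 14488 genes (0%) with edgeR and with DESeq2. At an unadjusted edgeR p under 0.05 there were 125 genes and 1 member, Eno2, whose log2 value of −1.73 rests on counts near the floor. With the tumor as a block, which sets each IP library against its own input, the standard errors of the members ranged from 0.17 to 0.57, in place of 0.26 to 0.83, and again 0 of 31 members and 0 of 14488 genes (0%) were called by edgeR. At an unadjusted p under 0.05 that fit held 140 genes and again Eno2 alone among the members, at −1.74 (SE 0.57). The ratio of IP to input of Eno2 was −0.45 to −2.25 on the log2 scale in the 5 tumors under 6-3-A6. In the 5 under control IgG the ratio was higher throughout, at −0.04 to 0.72, but the edgeR adjusted p of Eno2 was 1. The share of all genes whose ratios separated in this way was not computed, and the counts of Eno2 lie near the floor. A difference of the treatment effect between fractions was not called for any member, which does not show that the effects were alike.

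Across tumors, the input and IP values of several hypoxia genes followed each other, a relation chosen after the data had been seen. Over 10 tumors, the log2 CPM in input and in IP was correlated for each gene, giving 31 relations for the members, with p-values from permutations adjusted over 14488 genes. The fractions come from 1 homogenate a tumor, so the pairs share the tissue, and with 5 tumors a treatment the relation was not computed within treatments. For Egln3, input ranged from 37.1 to 156 CPM and IP from 37.2 to 527 CPM, with 6-3-A6 tumor 3 highest and 6-3-A6 tumor 5 lowest in both. Pearson's r was 0.97 (permutation p = 2e-05, adjusted p = 0.0116) and Spearman's rho was 0.95 (permutation, adjusted p = 0.0404), and r was 0.92 without the 2 tumors farthest from the median of input.

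For Ndrg1 the input values were 29.8, 55.4, 80.5, 46.2 and 32.02 CPM in control IgG tumors 1 to 5 and 87.0, 58.7, 125, 55.0 and 20.4 CPM in 6-3-A6 tumors 1 to 5. The tumors high in input were those high in IP, and r was 0.95 (permutation p = 3e-05, adjusted p = 0.0132), with rho at 0.98 (permutation, adjusted p = 0.0290) and r at 0.92 without the 2 farthest tumors. Bnip3 had r = 0.97 (permutation p = 4e-05, adjusted p = 0.0137), with rho at 0.89 (permutation, adjusted p = 0.0661), and r stayed at 0.92 without the 2 farthest tumors. Pdk1 at 0.90 (permutation, adjusted p = 0.0253), Egln1 at 0.88 (permutation, adjusted p = 0.0362) and Slc2a1 at 0.85 (permutation, adjusted p = 0.0477) also passed by r but not by rho, whose values were 0.82, 0.72 and 0.75 with adjusted p of 0.105, 0.168 and 0.151 from the same permutations. Without the 2 farthest tumors their r was 0.84, 0.72 and 0.97. In all, 6 of 31 members passed by r (19.4%), beside 4.55% of all genes, and 2 by rho (6.45%), beside 0.842% of all genes.

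**Figure D4:**
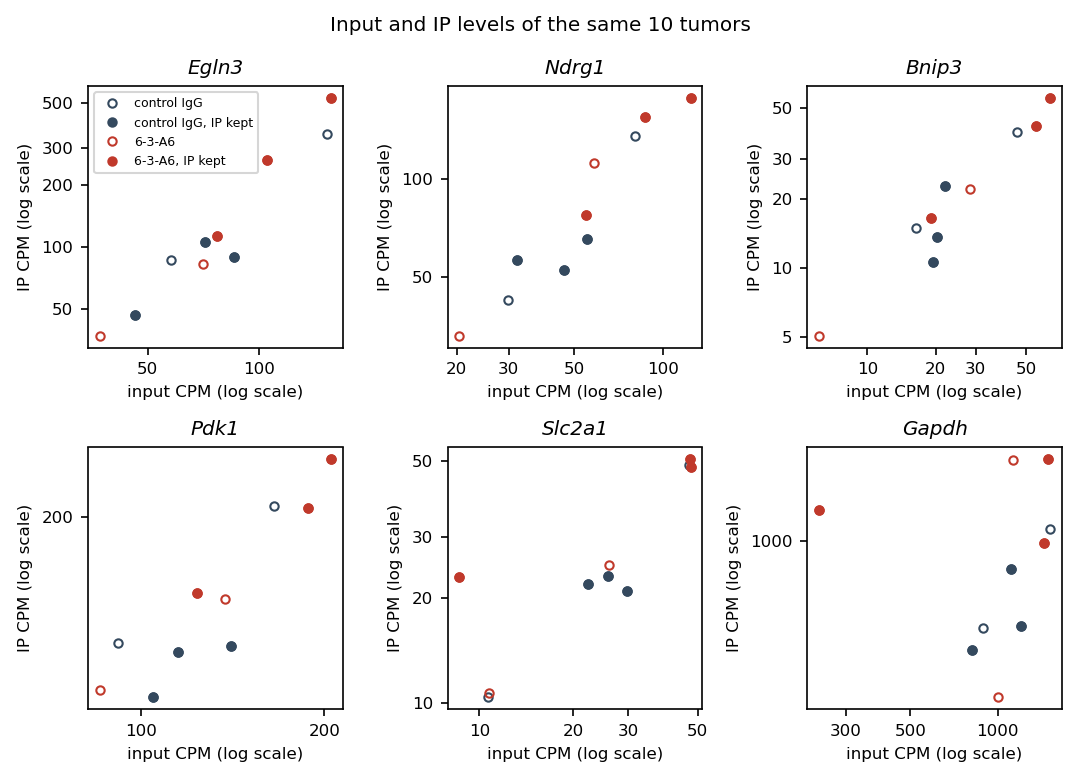
IP against input CPM, both on log axes, for each of 10 tumors (points coloured by treatment, filled where the study kept the IP library) for Egln3, Ndrg1, Bnip3, Pdk1, Slc2a1 and Gapdh. IP rises with input for Egln3, Ndrg1 and Bnip3 (r of 0.97, 0.95 and 0.97), and for Gapdh r is 0.03 over 10 tumors and 0.68 without 6-3-A6 tumor 4.

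The glycolytic enzymes did not pass. Gapdh had r = 0.03 and rho = 0.45, which were 0.68 and 0.78 without 6-3-A6 tumor 4. The median of r over the 31 members was 0.49, or 0.70 without that tumor, beside 0.38 and 0.52 over all genes. Without it, r was 0.97 for Egln3, 0.95 for Ndrg1, 0.97 for Bnip3, 0.91 for Pdk1, 0.94 for Egln1 and 0.98 for Slc2a1. Epas1 had r = 0.50, and Pfkfb3 had r = 0.70 (permutation, adjusted p = 0.139), which became −0.17 without the 2 farthest tumors and so rests on them. The highest library was that of 6-3-A6 tumor 3 for 20 of 31 members in input and for 16 of 31 in IP, where 6.48% and 7.38% of all genes had their highest value. Erythroid markers, summed, were at 313 to 643 CPM in the IP libraries of control IgG tumor 3 and 6-3-A6 tumors 1, 2 and 3 and at most at 45.8 CPM in the others, and their part in these differences was not tested.

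Promoter sequence is shown for the members whose own input and IP values were correlated over tumors by Pearson's r and for Ankrd37, called in both comparisons, because the HIF dimer is known to bind the core motifs ACGTG and GCGTG. The 250 bases before the annotated start were read from RefSeq (GRCm38.p6, a build other than that of the table's coordinates), which held windows for 29 of the 32 members, and Ndrg1, Epas1 and Slc2a3 are named only. Capitals mark either motif on either strand, overlapping matches included, and each window runs 5′ to 3′ on the strand of the gene.
Egln3, chr12:54203875-54204124, minus strand: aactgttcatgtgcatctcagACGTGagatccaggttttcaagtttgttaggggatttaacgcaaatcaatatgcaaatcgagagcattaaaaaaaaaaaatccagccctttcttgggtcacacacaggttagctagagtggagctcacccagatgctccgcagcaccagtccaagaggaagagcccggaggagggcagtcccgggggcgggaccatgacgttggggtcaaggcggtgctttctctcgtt
Bnip3, chr7:138909507-138909756, minus strand: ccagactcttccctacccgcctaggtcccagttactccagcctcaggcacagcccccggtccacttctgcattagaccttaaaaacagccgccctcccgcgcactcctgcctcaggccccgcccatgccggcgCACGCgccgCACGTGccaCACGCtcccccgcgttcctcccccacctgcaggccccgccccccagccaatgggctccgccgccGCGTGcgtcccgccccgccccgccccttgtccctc
Pdk1, chr2:71872974-71873223, plus strand: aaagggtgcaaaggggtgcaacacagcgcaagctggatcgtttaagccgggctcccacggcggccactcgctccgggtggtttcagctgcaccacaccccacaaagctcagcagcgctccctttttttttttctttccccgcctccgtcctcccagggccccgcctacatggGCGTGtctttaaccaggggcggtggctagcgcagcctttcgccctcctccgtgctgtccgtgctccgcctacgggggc
Egln1, chr8:124949255-124949504, minus strand: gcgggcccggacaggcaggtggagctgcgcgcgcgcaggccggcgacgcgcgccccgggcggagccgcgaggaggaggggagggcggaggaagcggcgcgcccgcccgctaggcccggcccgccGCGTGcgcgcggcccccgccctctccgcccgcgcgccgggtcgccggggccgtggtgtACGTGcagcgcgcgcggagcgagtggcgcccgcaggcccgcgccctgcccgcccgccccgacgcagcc
Slc2a1, chr4:119108495-119108744, plus strand: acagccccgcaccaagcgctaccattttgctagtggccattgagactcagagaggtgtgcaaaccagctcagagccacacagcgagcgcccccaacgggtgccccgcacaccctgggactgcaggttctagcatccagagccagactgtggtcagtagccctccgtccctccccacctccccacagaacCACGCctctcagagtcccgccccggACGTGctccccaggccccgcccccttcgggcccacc
Ankrd37, chr8:45999851-46000100, minus strand: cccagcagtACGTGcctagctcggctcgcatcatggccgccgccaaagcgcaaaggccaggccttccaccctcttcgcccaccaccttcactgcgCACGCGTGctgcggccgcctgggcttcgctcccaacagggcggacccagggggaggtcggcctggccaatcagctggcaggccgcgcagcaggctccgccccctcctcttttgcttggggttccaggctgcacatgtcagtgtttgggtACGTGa

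Either motif occurred in 34 of 42 windows of the members (81.0%), beside 12679 of 32851 windows over all genes (38.6%). By gene it occurred in 26 of 29 members, and the share by gene over all genes was not computed. Some windows of Aldoa, Eno1 and Pfkm overlap and hold the same matches more than once. The members were chosen by name as genes of glycolysis and the response to hypoxia, so their share is not an independent result. ACGTG occurred in 47.6% of the members' windows and in 16.6% of all, and GCGTG in 54.8% and 28.2%. Of the windows shown, that of Bnip3 held 5 matches, that of Ankrd37 4, those of Egln1 and Slc2a1 2 each, and those of Egln3 and Pdk1 1 each. A second window of Pdk1, for another annotated start (chr2:71874654-71874903), held 0 matches and is not printed. A match is a description of these letters and not a measured binding site.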

How the data were processed

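RNA of input and endothelial IP fractions was sequenced as single reads in 20 libraries of 10 tumors. The counts were deposited by the authors as raw reads per gene, aligned with STAR 2.7.4a and counted with featureCounts (2.0.1 and 1.5.2 are named in the submitters' processing notes) over whole gene spans, introns included. How the counting used strand, and what it did with reads lying in more than 1 gene, is not given in the sources used here. The notes name mm10, but only 1350 of 50566 genes matched by name had the start and end of the GRCm38 annotation, so coordinates are those of the table and were not mixed with GRCm38. A table of the authors' own fold changes and p-values for 6 IP libraries was not used, except that its header named the libraries kept.

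Groups were taken from the sample labels. Counts were tested with edgeR 4.0.16 (TMM, filterByExpr, quasi-likelihood F test, Benjamini-Hochberg over all genes tested, threshold 0.05) in R 4.3.3, and log2 CPM used a prior count of 2. Fits were IP against input with treatment as a term, 6-3-A6 against control IgG in 6 and 10 IP and in 10 input libraries, and their interaction. DESeq2 1.42.0, other scalings (library totals, RLE), no filter, the tumor as a block and single libraries left out were alternatives. Input and IP libraries of 1 tumor come from the same homogenate, so the tumor pairs them, and the correlation of their deviations from the group means was −0.0001 to 0.68. No libraries held identical values, and the most alike replicates differed by a median chi-square of 2.23 a gene, beside 0.455 from sampling noise. Intervals of depth (3 counts, 0.104 to 0.315 CPM at totals with a median of 16942643) cover counting error only. Near copies were sought with BLAST 2.17.0. The scripts were tested on simulated data.

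The members and all gene lists were chosen with earlier results of these data known. By the rule for naming, every member is accounted for, members called by edgeR in one of the main fits (without a block) and the HIF subunits get full values, and from each other list at most the 2 highest and 2 lowest called genes in IP against input and 3 called genes in treatment fits are named.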

Additional observations from a re-analysis of the deposited data

Results flagged for a closer look

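In the 124 groups of 5 libraries formed by 31 members, 10 held a highest or lowest value that stood far from the other 4 (Dixon's test at the 95% level), where chance gives about 1 in 20. Control IgG tumor 3 gave 6 of these. In its IP library Egln3 was at 351.96 CPM (47.0 to 106 in the other control IgG tumors), Ndrg1 at 135.631 CPM (42.3 to 65.2), Pdk1 at 207.595 CPM (108 to 129) and Pfkfb3 at 156.122 CPM (69.2 to 92.4). In its input library Bnip3 was at 45.3914 CPM (16.4 to 22.0) and Arnt at 139.928 CPM (105 to 112). The study did not keep the IP library of this tumor.

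In 6-3-A6 tumor 3, Pfkfb3 was at 156.711 CPM in IP (93.8 to 104 in the other 6-3-A6 tumors) and at 81.5635 CPM in input (40.8 to 45.6). Epas1 was at 93.001 CPM in the input library of 6-3-A6 tumor 4 (25.6 to 28.9 in the others), and Aldoc, the brain-type aldolase, at 34.982 CPM in the input library of control IgG tumor 1 (23.6 to 24.5).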

How the results depend on the processing

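For IP against input, where 8 members were higher and 2 lower among 2695 and 2902 genes, members called lower fell to 1 with library totals (1609 genes lower), without the filter, and without the tumors control IgG 4 and 6-3-A6 2, whose IP libraries held the least Pecam1 (chosen after seeing the data). The tumor as a replicate block gave 13 and 4 members. The control IgG tumors alone gave 5 and 0 members among 1378 and 785 genes, the 6-3-A6 tumors alone 4 and 1 among 1354 and 1153, and the kept tumors 1741 and 1606 genes, all from fewer libraries. In the 6 kept IP libraries, with 2 members and 360 and 286 genes called, DESeq2 gave 9 members among 660 and 530 genes, and no filter gave 8 among 733 and 726, and the cause was not tested. Leaving out 1 library at a time gave 0 to 5 members, 5 to 479 genes higher and 4 to 355 lower, both the lowest without 6-3-A6 IP 3. The share of called genes that were higher there was 55.7%, or 65.3% with library totals. A block on replicate number called 0 genes in the 10 IP and 0 in the 10 input libraries, where same-numbered libraries of both treatments correlated from −0.40 to 0.46 and from −0.53 to 0.39, so the numbers do not pair them. For the 6 kept IP libraries no paired analysis was possible because the treatments share only number 4.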
